A study of Mus musculus with 48 samples.

Results

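The genes described here are 10 members of the NFKB family and its closest regulators. They are the subunits *Nfkb1*, *Nfkb2*, *Rela*, *Relb* and *Rel*, the inhibitors *Nfkbia* and *Nfkbib*, the kinase subunits *Ikbkb* and *Ikbkg*, and *Tnfaip3*. They were found by symbol, and all 10 were in the table of B6 mice (27082 genes) and in the table of *APOE*-TR mice (18939 genes). RNA was sequenced from the cerebral cortex of 48 mice, with 12 groups of 4 that differed in sex, genotype or exposure. The 16 B6 mice were wild type C57BL/6J with mouse *Apoe*, breathed filtered air (control) or nPM for 8 weeks, and are given an age of 4 months in the labels. The 32 *APOE*-TR mice carried human *APOE3* or *APOE4* at the mouse *Apoe* locus (targeted replacement), in place of the mouse gene and under its regulatory sequences, breathed filtered air or nPM for 15 weeks in a separate exposure, and are given an age of 6 months. nPM is a nano-sized fraction of urban airborne particles, collected on filters and re-aerosolized for inhalation. In both strains nPM or filtered air was given intermittently, for some hours a day on some days of each week, not continuously. Because each strain had its own exposure, duration, age and expression table, strain cannot be told apart from these.

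NFKB factors are dimers of Rel-domain proteins that are held in the cytoplasm by inhibitors of the IκB family. Inflammatory and oxidative signals activate the IκB kinase, which marks the inhibitors for destruction, so that the dimers enter the nucleus and bind κB sites. Among the genes they switch on are those of their own inhibitors and of A20, the product of *Tnfaip3*, which close the loop. In the cortex the pathway operates in microglia, astrocytes, endothelial cells and neurons.

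All values are CPM (reads per gene relative to the size of the library, as scaled by the authors) after TMM rescaling within each table, and differences are log2 differences of CPM with 0.5 CPM added. In B6 mice the values rested on an estimated 2.05 to 24.4 M (mega) reads per mouse, and in *APOE*-TR mice on 17.8 to 31.3 M, with 17.8 to 22.3 M in females and 22.4 to 31.3 M in males. Mouse *Apoe*, the replaced gene, ranged from 172 to 535.3 CPM in B6 mice and from 8.74 to 29.4 CPM in *APOE*-TR mice, which separates B6 from *APOE*-TR mice and does not check the labels *APOE*3 and *APOE*4. Markers of cortical cell types were present throughout, with neuronal sums of 2190 to 7720 CPM, and blood leukocyte markers summed to 1.66 to 13.9 CPM (*S100a8* and *Camp* were not listed for B6 mice). The *APOE*3 female controls 61 and F6 lay farther from the typical *APOE*-TR mouse than any other, with median absolute differences over genes of 0.644 and 0.506, against 0.312 for nPM 55 of the same genotype and sex, the next in order. In these mice a gene's level, relative to the other mice, fell with its exon length, by 0.605 (log2 per doubling of length) in control 61 and by 0.454 in control F6, while the other *APOE*-TR females had slopes from −0.270 to −0.00796 and the males from 0.0171 to 0.123. Results that rest on controls 61 and F6 are therefore given with and without them. In bulk cortex, fewer cells of a type and less RNA per cell cannot be told apart.

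The members differed widely in abundance. On the scale of CPM per kb of exon, the inhibitor *Nfkbia* was highest in both strains, at 6.02 ± 1.07 CPM per kb (SD, n = 32) in *APOE*-TR mice and 7.92 ± 4.53 (SD, n = 16) in B6 mice. In *APOE*-TR mice the kinase subunits *Ikbkb* (5.54 ± 0.97 CPM per kb) and *Ikbkg* (5.44 ± 0.316) came next, followed by *Nfkbib* (4.78 ± 1.20) and *Rela* (4.27 ± 0.838). Neighbours among these 5 genes differed by less than the larger of their SDs between mice. *Nfkb1* (2.02 ± 0.395), *Tnfaip3* (1.27 ± 0.243) and *Relb* (1.10 ± 0.138) formed a middle tier, of which *Tnfaip3* and *Relb* differed by less than the larger SD, and *Nfkb2* (0.224 ± 0.0547) and *Rel* (0.122 ± 0.0368) were the lowest. Thus the subunits of the canonical dimer, *Rela* and *Nfkb1*, were the most abundant NFKB subunit transcripts, while *Rel*, best known from lymphocytes, and *Nfkb2* of the noncanonical pathway were scarce. In B6 mice *Rela* (3.49 ± 1.56 CPM per kb) came second, then *Nfkbib* (3.01 ± 2.16), *Ikbkb* (1.77 ± 0.656), *Ikbkg* (1.01 ± 0.396), *Nfkb1* (0.941 ± 0.389), *Tnfaip3* (0.517 ± 0.239) and *Relb* (0.506 ± 0.400), with *Rel* (0.292 ± 0.204) and *Nfkb2* (0.129 ± 0.103) again at the bottom. In that order, neighbours differed by more than the larger SD only between *Ikbkb* and *Ikbkg* and between *Nfkb1* and *Tnfaip3*. Levels were not compared across strains, since the tables were scaled separately and the gene model of *Rel* is 4882 bp longer in the B6 table and that of *Nfkbib* 868 bp longer. The same exon length was used for both tables (7466 bp for *Rel* and 2127 bp for *Nfkbib*). The values per kb of these genes in *APOE*-TR mice may therefore be too low. Their places in the *APOE*-TR order, such as *Rel* below *Nfkb2*, are not settled. In B6 mice the low members rested on few reads, and *Nfkb2* had none in 4 of 16 mice, *Rel* and *Relb* in 1 each.

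**Figure D1:**
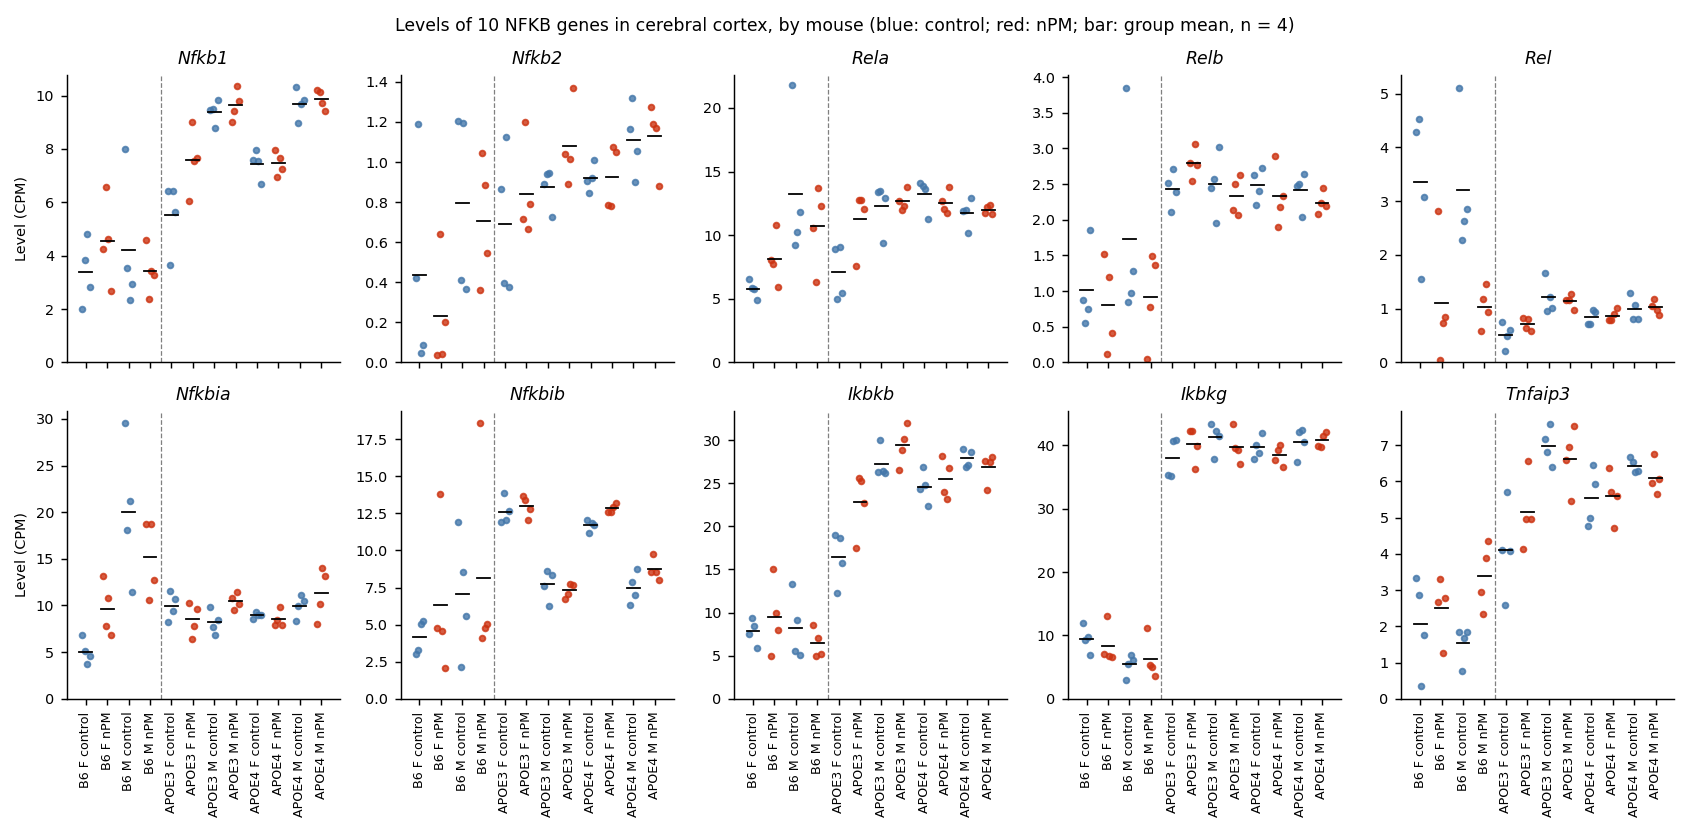
Level in CPM of each of the 10 genes in every mouse, by group (blue, control; red, nPM; bar, group mean of 4 mice; the dashed line separates the B6 from the *APOE*-TR table, which were scaled separately). In B6 males all nPM points of *Rel* lie below all control points, and *Nfkbib* in *APOE*-TR mice lies at 11.2 to 13.9 CPM in females and 6.22 to 9.76 CPM in males.

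Several members have κB-like letters at their own start sites. RefSeq (GRCm38.p6) windows from 250 bases before to 50 after a start were at hand for 7 of the 10 members, without *Nfkb1*, *Relb* and *Ikbkb*. A κB form (GGG, any 2 bases, then TTTCC), searched on both strands, was in 1.63% of 32851 windows of all genes and in 6 of the 13 windows of the members, from *Nfkb2*, *Nfkbia*, *Rel* and *Tnfaip3*. This form was chosen after several had been tried, and a match is a description, not a bound site. The sequences are printed 5′ to 3′ on the strand of the gene, because these 4 genes are the ones with a match, and capitals mark it. For *Nfkb2* they lie at chr19:46304716-46304745 and chr19:46305695-46305724 on the + strand, the match beginning 11 bases before one start and 10 after another. For *Nfkbia* the stretch is chr12:55492657-55492686, for *Rel* chr11:23771041-23771070 and for *Tnfaip3* chr10:19015403-19015432, all on the − strand, with matches 29, 91 and 12 bases before the start, read on the opposite strand.
Nfkb2 first start: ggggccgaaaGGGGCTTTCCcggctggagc
Nfkb2 second start: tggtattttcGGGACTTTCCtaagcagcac
Nfkbia: tgactggcttGGAAATTCCCcgcgcctgac
Rel: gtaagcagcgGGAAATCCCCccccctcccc
Tnfaip3: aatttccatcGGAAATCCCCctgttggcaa

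To ask whether nPM changed the NFKB genes, control and nPM mice were compared in each sex and genotype and over all 48 mice. None of the members passed the call for nPM (unadjusted p under 0.005 in limma) in any of these 7 comparisons. Among all genes tested, 0.947% passed in B6 females, 0.236% in their male counterparts, 0.614% and 0.0953% in *APOE*3 females and males, 0.218% and 0.116% in *APOE*4 females and males, and 1.2% over the 48 mice. At an unadjusted p under 0.05 there were 2 of 9 members in B6 females (8.17% of all genes), 2 of 10 in B6 males (3.96%), and 2 and 1 in *APOE*3 females (21.8%) and males (1.88%). There were 0 in *APOE*4 females (5.51%) and males (4.03%), and 2 over all mice (12.2%). voom also called 0 members in each of the 7, as did edgeR's quasi-likelihood test in the 4 *APOE*-TR comparisons where it was run. When all groups of the table shared a spread, *Rela* (unadjusted p = 0.000287), *Ikbkb* (unadjusted p = 0.000283) and *Nfkb1* (unadjusted p = 0.00078) passed the call in *APOE*3 females in limma, as did 33.3% of all genes. *Nfkb2* was below the level filter (a mean of 0.5 CPM) in B6 females and was not tested there.

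*Rel*, which encodes c-Rel, on chromosome 11 from 23736847 to 23770971 (mm10, B6 table), had lower values with nPM in B6 mice of both sexes. In B6 females the controls 40, 41, 42 and 43 had 4.28, 4.53, 1.56 and 3.08 CPM, and nPM mice 50, 51, 52 and 53 had 2.81, 0.0411, 0.741 and 0.837 CPM. Only control 42 and nPM 50 overlapped, and nPM 51 stood at the lowest value of its library, that of a gene without reads. In B6 males the controls 0, 2, 3 and 6 had 5.10, 2.27, 2.64 and 2.86 CPM, and nPM mice 10, 11, 12 and 16 had 0.589, 1.17, 1.46 and 0.934 CPM. All 4 nPM males lay below all 4 control males, as did 0.812% of the genes tested in B6 males. The log2 difference was −1.47 (SE 0.55, unadjusted p = 0.0165, adjusted p = 0.522 from limma) in B6 females and −1.25 (SE 0.43, unadjusted p = 0.0091, adjusted p = 1.0 from limma) in B6 males, where *Rel* ranked 98th of 18227 genes by p. Without nPM 50 the difference in females became −1.92 with an unadjusted p of 0.0018 in limma, past the call. An exact permutation test over the 4900 labelings within sex gave a mean difference of −1.36 in the 16 B6 mice (two-sided p = 0.00163, against a smallest possible p of 0.000408), for a gene singled out after its values were seen. In limma the 16 B6 mice alone gave the same −1.36 with an unadjusted p of 0.000487 and an adjusted p of 0.937. These values rested on an estimated 14 to 167 reads per mouse in controls and 0 to 73 in nPM mice, and total depth ranged from 2.05 to 24.4 M reads in controls and from 4.22 to 16.5 M in nPM mice. Summed microglial markers, from a cell type in which *Rel* can be expressed, were 101 to 135 CPM in B6 female controls and 96.2 to 192 CPM with nPM, and 129 to 224 CPM and 113 to 192 CPM in males, so both ranges overlapped. The part of depth or of cell types in the difference was not tested.

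In *APOE*-TR mice the *Rel* levels of control and nPM mice overlapped in each sex and genotype. Its 16 controls ranged from 0.220 to 1.67 CPM (median 0.880) and its 16 nPM mice from 0.575 to 1.28 CPM (median 0.937). The log2 differences were 0.27 (SE 0.19, or 0.11 without controls 61 and F6) and −0.04 (SE 0.14) in *APOE*3 females and males, and 0.04 (SE 0.13) in either sex of *APOE*4, with unadjusted p between 0.175 and 0.789. The fit over all 48 mice gave −0.40 (SE 0.15, unadjusted p = 0.0121, adjusted p = 0.359 from limma). That value depended on the B6 mice, since the 32 *APOE*-TR mice alone gave 0.08 (unadjusted p = 0.357), and a fit that let each table have its own spread gave 0.01 (unadjusted p = 0.919). Without controls 61 and F6 it was −0.47 with an unadjusted p of 0.00362, past the call, and without control 61 alone −0.45 with an unadjusted p of 0.00492.

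**Figure D2:**
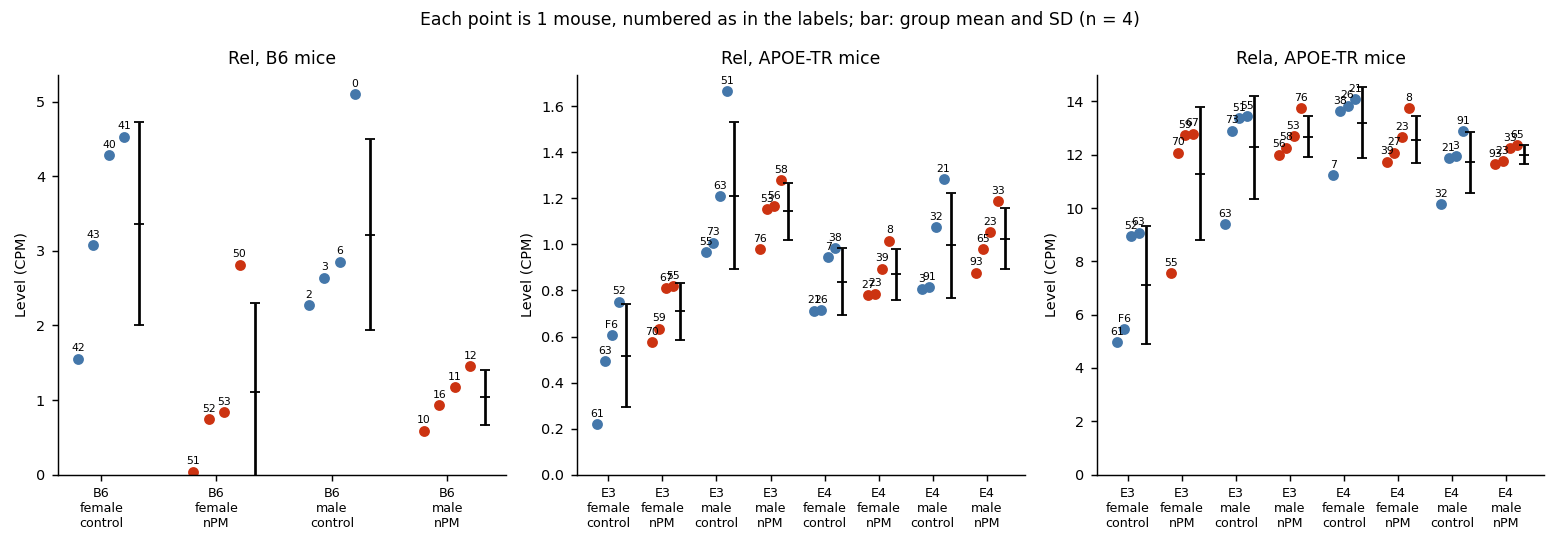
Levels in CPM of *Rel* in B6 mice (left), *Rel* in *APOE*-TR mice (middle) and *Rela* in *APOE*-TR mice (right), each point 1 mouse with its label number, bars for group mean and SD of 4 mice, y axes of different range, and the SD bar of B6 female nPM ending at 0. In B6 males all nPM points lie below all control points for *Rel*, and the *APOE*3 female controls hold the 2 lowest *Rela* points, 61 and F6 (4.97 and 5.45 CPM).

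The difference of the nPM response between strains was tested as a contrast of the 12 groups with a spread for each table, a comparison added after the values of *Rel* were seen. *Rel* responded lower in B6 than in *APOE*-TR mice by −1.44 on the log2 scale (SE 0.33, unadjusted p = 9.41e-05, adjusted p = 0.451 from limma). It was the only member past an unadjusted p of 0.005, where 0.487% of all 13543 genes passed and *Rel* ranked 2nd. The other members lay between −0.45 for *Relb* (SE 0.30) and 0.61 for *Tnfaip3* (SE 0.32, unadjusted p = 0.0674), and none had an unadjusted p under 0.05, as 4.65% of all genes had. Leaving out each mouse in turn kept *Rel* between −1.66 and −1.22. Filters that ask for reads in every mouse removed *Rel*, which has none in B6 female nPM 51.

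*Rela*, which encodes the p65 subunit that carries most of the activating function, lies on chromosome 19 from 5637490 to 5648131 and had its largest nPM difference in *APOE*3 females. Controls 52, 61, 63 and F6 had 8.95, 4.97, 9.08 and 5.45 CPM, and nPM mice 55, 59, 67 and 70 had 7.57, 12.7, 12.8 and 12.1 CPM. All but nPM 55 of the nPM mice lay above all controls, and controls 61 and F6 were the lowest of the 8. The log2 difference was 0.65 (SE 0.25, unadjusted p = 0.0281, adjusted p = 0.221 from limma), and 0.28 (unadjusted p = 0.230) without controls 61 and F6. In *APOE*3 males *Rela* differed by 0.06 (SE 0.11), and in *APOE*4 mice by −0.07 (SE 0.09) in females and 0.04 (SE 0.08) in males. In B6 mice its log2 difference was 0.44 (SE 0.31) in females and −0.27 (SE 0.35) in males.

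*Nfkb1*, which encodes p105 and its product p50, the usual partner of p65, lies on chromosome 3 from 135584655 to 135691548. In *APOE*3 females its controls 52, 61, 63 and F6 had 6.43, 3.65, 6.44 and 5.64 CPM and nPM mice 55, 59, 67 and 70 had 6.04, 9.03, 7.56 and 7.66 CPM. Here too nPM 55 overlapped the controls and control 61 was the lowest, and the log2 difference was 0.44 (SE 0.20, unadjusted p = 0.0549 in limma), and 0.21 (unadjusted p = 0.246) without controls 61 and F6. In the other 5 groups of sex and genotype it lay between −0.16 and 0.38, with unadjusted p from 0.359 to 0.962. *Relb* and *Nfkb2*, the pair of the noncanonical pathway, gave no unadjusted p under 0.05 for nPM. *Relb* ranged from 1.90 to 3.06 CPM over the *APOE*-TR mice and its differences ran from −0.64 (SE 0.53) in B6 males to 0.17 (SE 0.12) in *APOE*3 females, which was 0.08 (SE 0.14) without controls 61 and F6. *Nfkb2* ranged from 0.378 to 1.37 CPM over the *APOE*-TR mice, with differences from −0.06 (SE 0.45) in B6 males to 0.21 (SE 0.23) in *APOE*3 females, where it was −0.17 (SE 0.20) without them.

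*Nfkbia*, which encodes IκBα, the inhibitor that NFKB itself induces, lies on chromosome 12 from 55489410 to 55492648. In B6 females the controls 40, 41, 42 and 43 had 6.81, 5.08, 3.69 and 4.60 CPM and nPM mice 50, 51, 52 and 53 had 13.2, 7.83, 10.8 and 6.86 CPM. All nPM females lay above all control females, nPM 53 and control 40 being nearly equal, as did 3.47% of the genes tested there. This rested on the TMM rescaling, since in the deposited CPM nPM 51 (6.60) lay below control 40 (6.90). The log2 difference was 0.86 (SE 0.34, unadjusted p = 0.0208, adjusted p = 0.563 from limma). In B6 males, by contrast, controls ranged from 11.4 to 29.6 CPM and nPM mice from 10.6 to 18.7 CPM, a log2 difference of −0.36 (SE 0.33, unadjusted p = 0.30). In *APOE*3 males the controls 51, 55, 63 and 73 had 9.82, 7.65, 6.85 and 8.43 CPM and nPM mice 53, 56, 58 and 76 had 10.8, 9.47, 11.4 and 10.2 CPM. Only control 51 and nPM 56 overlapped, and the difference of 0.34 (SE 0.11, unadjusted p = 0.0072, adjusted p = 1.0 from limma) ranked 30th of 14697 genes. Without control 51 it was 0.43 with an unadjusted p of 0.00121, past the call. In *APOE*3 females the difference was −0.23 (SE 0.17), or −0.06 (SE 0.20) without controls 61 and F6, and in *APOE*4 mice −0.08 (SE 0.09) for females and 0.15 (SE 0.16) for males.

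*Nfkbib*, which encodes IκBβ, an inhibitor that NFKB induces less, lies on chromosome 7 from 28758251 to 28766645 in the *APOE*-TR table. In *APOE*4 females its controls 7, 21, 26 and 38 had between 11.2 and 12.03 CPM and nPM mice 8, 23, 27 and 39 had 13.2, 12.6, 12.6 and 12.9 CPM. All nPM mice lay above all controls, as did 1.29% of the genes tested, while the difference of 0.13 (SE 0.06) had an unadjusted p of 0.0698. In *APOE*4 males it was 0.21 (SE 0.10, unadjusted p = 0.0575), and in *APOE*3 mice 0.04 (SE 0.10) in females and −0.07 (SE 0.10) in males. In B6 mice it varied widely, from 2.11 to 18.6 CPM, and gave 0.31 (SE 0.47) in females and 0.13 (SE 0.51) in males.

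*Ikbkb*, which encodes the catalytic kinase IKKβ of the canonical pathway, lies on chromosome 8 from 22659205 to 22706584 and was patterned like *Rela* in *APOE*3 females. Controls 52, 61, 63 and F6 had 18.9, 12.2, 18.7 and 15.8 CPM and nPM mice 55, 59, 67 and 70 had 17.5, 25.7, 25.2 and 22.7 CPM. Again nPM 55 was the lone nPM mouse within the control range, and control 61 was the lowest. The log2 difference of 0.47 (SE 0.18, unadjusted p = 0.0299, adjusted p = 0.221 from limma) became 0.25 (unadjusted p = 0.171) without controls 61 and F6. In the other groups *Ikbkb* differed by −0.26 to 0.18, with unadjusted p from 0.170 to 0.606. *Ikbkg*, which encodes the scaffold subunit NEMO, on chromosome X from 74393291 to 74453779, was the steadiest member in *APOE*-TR mice, at 35.2 to 43.4 CPM over all 32, and its nPM differences lay between −0.20 (SE 0.32) in B6 females and 0.13 (SE 0.41) in B6 males.

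*Tnfaip3*, which encodes the ubiquitin-editing enzyme A20 that ends NFKB signaling, lies on chromosome 10 from 19000910 to 19015658 (B6 table). In B6 males the controls 0, 2, 3 and 6 had 1.85, 0.777, 1.68 and 1.85 CPM and nPM mice 10, 11, 12 and 16 had 2.94, 2.33, 3.88 and 4.37 CPM. All nPM males lay above all control males, as did 0.894% of the genes tested there. The log2 difference was 0.94 (SE 0.42, unadjusted p = 0.0376, adjusted p = 1.0 from limma), on an estimated 9 to 36 reads per mouse in controls and 27 to 74 in nPM mice. In B6 females controls ranged from 0.356 to 3.33 CPM and nPM mice from 1.27 to 3.30 CPM, a difference of 0.37 (SE 0.51). The exact permutation test within sex over the B6 mice gave a mean of 0.66 (two-sided p = 0.0510), again for a gene singled out after its values were seen. The members other than *Rel* and *Tnfaip3* had a two-sided p from 0.225 (*Relb*) to 0.884 (*Ikbkg*) in this permutation test. In *APOE*3 females *Tnfaip3* differed by 0.32 (SE 0.22), or 0.07 (SE 0.20) without controls 61 and F6, and in the other *APOE*-TR groups by −0.08 to 0.02. All 48 mice gave 0.25 (SE 0.12, unadjusted p = 0.0462, adjusted p = 0.402 from limma), or 0.20 (unadjusted p = 0.102) without these controls. That value depended on the B6 mice, since the 32 *APOE*-TR mice alone gave 0.05 (unadjusted p = 0.577 in limma). A fit that let each table have its own spread gave 0.07 (unadjusted p = 0.341 in limma).

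**Figure D3:**
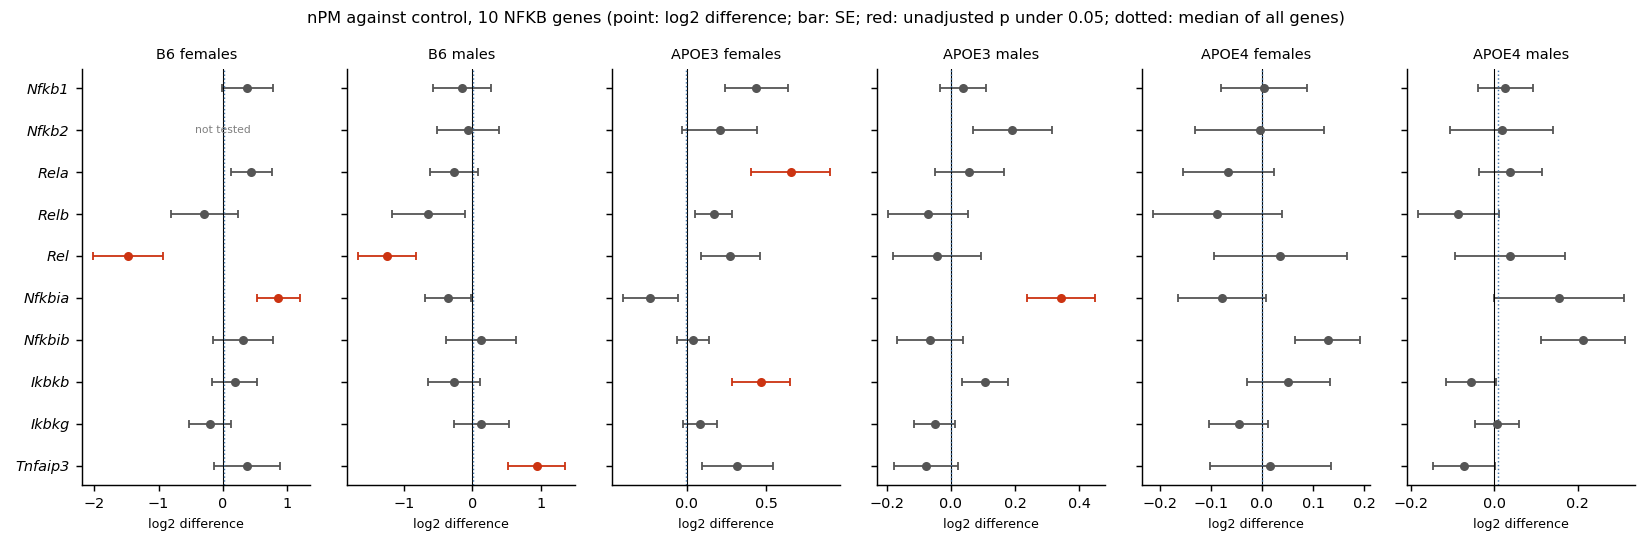
Difference of nPM against control mice for the 10 genes in each sex and genotype, as log2 with SE (4 against 4 mice), red where the unadjusted limma p was under 0.05, with the median of all genes as a dotted line and a different x range in each panel. The red points are *Rel* and *Nfkbia* in B6 females, *Rel* and *Tnfaip3* in B6 males, *Rela* and *Ikbkb* in *APOE*3 females and *Nfkbia* in *APOE*3 males.

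Across the members the median nPM difference was 0.31 and −0.21 in B6 females and males, 0.24 and −0.00357 in *APOE*3 females and males, and 2.85e-06 and 0.02 in *APOE*4 females and males. The medians of all genes tested lay between −0.0004 and 0.02. In *APOE*3 females 9 of 10 members had a positive difference. Without controls 61 and F6 there were 8 of 10, and the median fell to 0.10, beside 0.01 for all genes. There the length slopes were −0.605 to −0.158 in controls and −0.270 to −0.0461 in nPM mice, and summed microglial markers were 283 to 334 CPM in controls and 212 to 280 CPM in nPM mice, with no overlap. The part of these in the members' differences was not tested.

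The nPM responses of *APOE*4 and *APOE*3 mice were compared as a contrast of the 8 *APOE*-TR groups, to ask whether the allele changed the response. None of the members passed an unadjusted p of 0.005 in limma, where 0.691% of 14766 genes did, nor with voom or edgeR's quasi-likelihood test. *Ikbkb* (−0.29, SE 0.11, unadjusted p = 0.0159) and *Rela* (−0.37, SE 0.16, unadjusted p = 0.0264) had an unadjusted p under 0.05, as had 10.7% of all genes, both with an adjusted p of 0.433. Without *APOE*3 female nPM 55 both passed the call, *Ikbkb* at −0.35 (unadjusted p = 0.00191) and *Rela* at −0.45 (unadjusted p = 0.00304). Both then had an adjusted p of 0.169 in limma, and the share of all genes that passed in that fit is not given here. Without controls 61 and F6 *Ikbkb* was −0.18 (unadjusted p = 0.0694) and *Rela* −0.18 (unadjusted p = 0.169). *Nfkbib* went the other way, at 0.18 (SE 0.09, unadjusted p = 0.0509), and was the only member with a positive value. Without controls 61 and F6 it was 0.15 (unadjusted p = 0.126 in limma), and 2 members were positive, *Rel* being at 0.0025. Between the sexes, over all genotypes, the response of *Rela* was higher in females by 0.40 (SE 0.18, unadjusted p = 0.0311, adjusted p = 0.446 from limma), or by 0.28 (unadjusted p = 0.127) without controls 61 and F6. No member passed the call there in limma or voom, against 1.49% of 13543 genes, and *Rela* was the only one with an unadjusted p under 0.05, which 10.6% of all genes had. With a spread for each table *Rela* kept 0.40, with an unadjusted p of 0.0839 in limma.

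*APOE*4 mice were then compared with *APOE*3 mice within each sex and exposure, at 5% FDR. No member passed in any of the 4 comparisons, nor over all 48 mice, by limma or voom, nor by edgeR in the 4. Of all genes, 0.304% passed in control females, 0.565% in control males, 0.211% in nPM females, 0.667% in nPM males and 0.347% over all mice. Control females had the largest differences, and they used the same *APOE*3 control mice as the nPM comparison above. *Rela* was 11.2, 14.1, 13.8 and 13.6 CPM in *APOE*4 controls 7, 21, 26 and 38, all above the 4.97 to 9.08 CPM of the *APOE*3 controls. The log2 difference was 0.89 (SE 0.21, unadjusted p = 0.0021, adjusted p = 0.0737 from limma). *Ikbkb* was 22.4, 24.3, 26.9 and 24.8 CPM in the same *APOE*4 mice, against 12.2 to 18.9 CPM, a difference of 0.59 (SE 0.15, unadjusted p = 0.00383, adjusted p = 0.0737 from limma). *Nfkb1* was 6.68, 7.58, 7.96 and 7.56 CPM, against 3.65 to 6.44 CPM, a difference of 0.42 (SE 0.18, unadjusted p = 0.0409, adjusted p = 0.103 from limma). The groups did not overlap for these 3 genes, nor for 30% of all genes tested, and 43.6% of all genes had an unadjusted p under 0.05. For *Nfkb1* this rested on the TMM rescaling, since in the deposited CPM *APOE*4 control 7 (6.61) lay below *APOE*3 control 52 (6.75). When all groups of the table shared a spread, 5 members passed 5% FDR in limma (*Rela*, *Ikbkb*, *Nfkb1*, *Rel* and *Tnfaip3*), as did 58.6% of all genes. The length slopes did not overlap either, at −0.605 to −0.158 in the *APOE*3 and −0.146 to −0.0347 in the *APOE*4 controls, and their part in the differences was not tested.

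These differences were smaller without controls 61 and F6. *Rela* was then 0.52 higher (adjusted p = 0.0507), *Ikbkb* 0.37 (adjusted p = 0.0666) and *Nfkb1* 0.19 (unadjusted p = 0.129) in limma, and 26.1% of all genes had an unadjusted p under 0.05. Calls appeared when another *APOE*3 control was left out. Without control 52 they were *Rela* (1.01), *Ikbkb* (0.66) and *Rel* (0.53), with adjusted p of 0.0228, 0.0228 and 0.0489 in limma. Without control 63 they were *Rela* (1.02) and *Ikbkb* (0.65), both with an adjusted p of 0.0480. Both fits kept controls 61 and F6. *Rel* passed without control 52 at an unadjusted p of 0.021, which under Benjamini-Hochberg adjustment takes a large share of all genes passing with it. The shares of all genes in these fits are not given here. In nPM females, which are other mice, the differences were 0.17 (SE 0.16) for *Rela*, 0.17 (SE 0.13) for *Ikbkb* and −0.01 (SE 0.12) for *Nfkb1*, and no member had an unadjusted p under 0.05, as 9.29% of all genes had.

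In males 1 member had an unadjusted p under 0.05 for the allele in each exposure, beside 5.56% of all genes in controls and 10.5% in nPM mice. In control males *Nfkbia* was higher in *APOE*4, at 8.29 to 11.1 CPM against 6.85 to 9.82 CPM, by 0.27 (SE 0.12, unadjusted p = 0.0413, adjusted p = 0.833 from limma). In nPM males *Nfkbib* was 8.55, 9.76, 8.57 and 8.00 CPM in *APOE*4 mice 23, 33, 65 and 93 and 6.74, 7.09, 7.71 and 7.67 CPM in *APOE*3 mice 53, 56, 58 and 76. All *APOE*4 mice lay above all *APOE*3 mice, as did 3.66% of genes, and the difference was 0.24 (SE 0.08, unadjusted p = 0.0102, adjusted p = 0.310 from limma). *Nfkbib* and *Relb* lie on chromosome 7, as *Apoe* does, *Nfkbib* 9.06 Mb and *Relb* 66.8 kb from it in the *APOE*-TR table. *Relb*, the nearer, differed between the alleles by −0.23 (SE 0.12) in nPM females and by −0.05 to 0.03 in the other 3 comparisons, with unadjusted p of at least 0.0987.

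**Figure D4:**
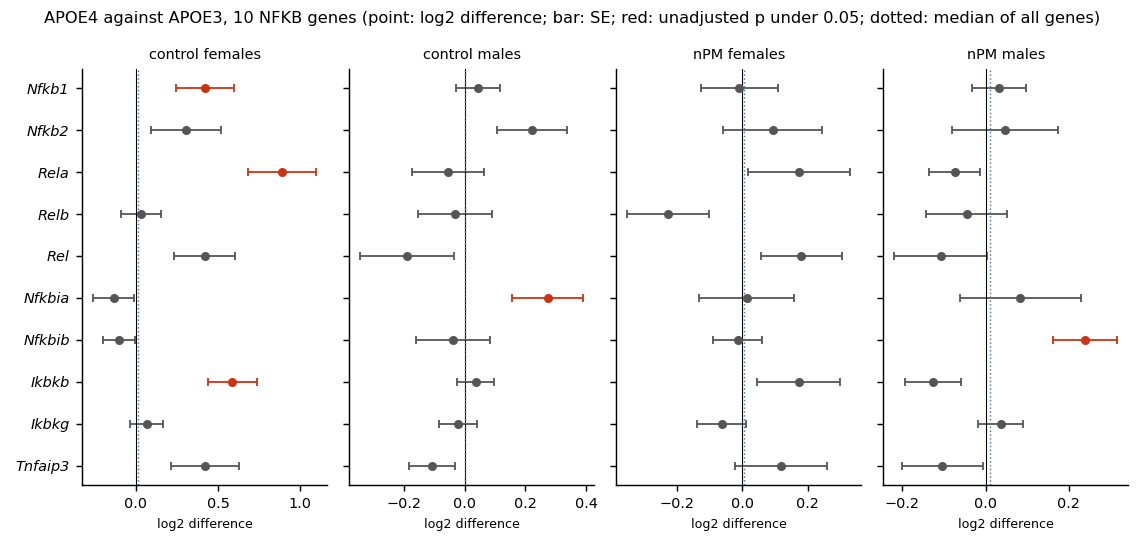
Difference of *APOE*4 against *APOE*3 mice for the 10 genes by sex and exposure, as log2 with SE (4 against 4 mice), red where the unadjusted limma p was under 0.05, the median of all genes dotted, and a different x range in each panel. *Rela*, *Ikbkb* and *Nfkb1* are red in control females, *Nfkbia* in control males and *Nfkbib* in nPM males, and the control female values shrink without controls 61 and F6.

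Females were then compared with males, a comparison added after the levels were seen. Among the *APOE*-TR mice 6 of the 10 passed 5% FDR in limma, 1 higher and 5 lower in females, beside 63.3% of all genes, 30.4% higher and 33% lower, so that the members' count was near the background. *Nfkbib* was higher in females, from 11.2 to 13.9 CPM (median 12.6) in 16 females and from 6.22 to 9.76 CPM (median 7.79) in 16 males. No female overlapped any male, which held for 7.02% of all genes, and the log2 difference was 0.66 (SE 0.05, adjusted p = 2.78e-12 from limma), ranked 58th of 14766. The other 5 were lower in females, *Nfkb1* by −0.46 (SE 0.06), *Rel* by −0.38 (SE 0.08), *Tnfaip3* by −0.35 (SE 0.08), *Ikbkb* by −0.34 (SE 0.07) and *Nfkb2* by −0.22 (SE 0.07), with adjusted p from 8.35e-07 to 0.0128, and each of them overlapped between the sexes. Without controls 61 and F6, *Nfkb2* no longer passed (−0.14, adjusted p = 0.0538) and *Nfkbia* did (−0.19, adjusted p = 0.0290). Read depth did not overlap between *APOE*-TR females and males, nor did the length slope or the summed endothelial markers (32.8 to 64.3 CPM in females and 80.3 to 135 CPM in males), so that sex cannot be told apart from these.

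In B6 mice, *Nfkbia* was the member that differed most between the sexes, from 3.69 to 13.2 CPM (median 6.84) in 8 females and from 10.6 to 29.6 CPM (median 18.4) in 8 males. Among controls, summed neuronal markers were 5314 to 6905 CPM in females and 2190 to 5099 CPM in males, and astrocyte markers 2770 to 3990 CPM and 1219 to 2492 CPM, with no overlap, while both sums overlapped between nPM females and males. The part of these in the sex differences of B6 mice was not tested. The sexes overlapped only through female nPM 50 and 52, and the difference was −1.24 (SE 0.26, adjusted p = 0.00261 from limma), where 16.6% of 18059 genes passed 5% FDR, 9.42% higher and 7.17% lower in females. *Rela* was also lower in B6 females, at 4.92 to 10.8 CPM against 6.28 to 21.8 CPM, by −0.70 (SE 0.24, adjusted p = 0.0445 from limma). That call was lost with no filter (adjusted p = 0.0600), with voom (adjusted p = 0.0702) and without each of 11 of the 16 mice. The 11 were female controls 40, 41, 42 and 43, male controls 0, 3 and 6, female nPM 53 and male nPM 10, 12 and 16, and the adjusted p for *Rela* without 1 of them ran from 0.0566 to 0.0875. *Ikbkg*, an X-linked gene, was 0.61 higher in B6 females (SE 0.26, adjusted p = 0.102) and passed without male nPM 10 (0.77, adjusted p = 0.0406). *Nfkbib* had a value of the other sign in B6 mice than in *APOE*-TR mice, −0.43 (SE 0.37, unadjusted p = 0.251), and the difference between the strains was not tested.

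**Figure D5:**
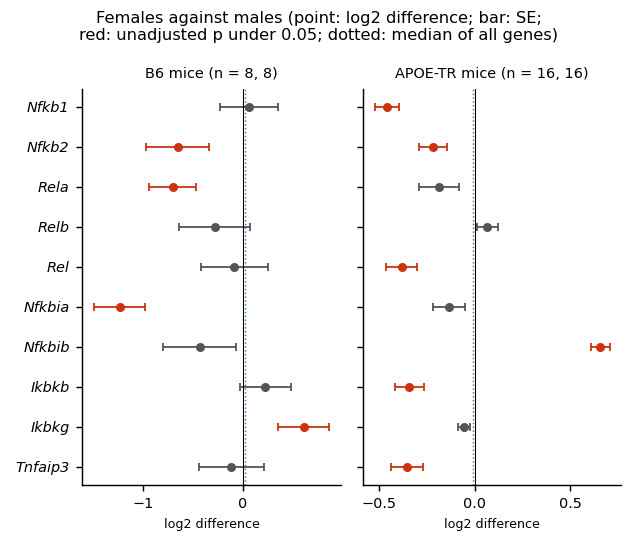
Difference of females against males for the 10 genes in B6 mice (8 against 8) and *APOE*-TR mice (16 against 16), as log2 with SE, red where the unadjusted limma p was under 0.05, the median of all genes dotted, and a different x range in each panel. *Nfkbib* stands apart on the positive side in *APOE*-TR mice (0.66) and *Nfkbia* on the negative side in B6 mice (−1.24).

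The wider pathway was read from 73 genes in 4 lists that overlap in part, of which 70 were in both tables (*Il18r1*, *Tnf* and *Ccl5* were not listed for B6 mice). No gene of these lists passed the call for nPM in any sex and genotype or over all mice, by limma. At an unadjusted p under 0.05 there were 1 of 54 in B6 females (8.17% of all genes), 2 of 54 in B6 males (3.96%), 10 of 60 in *APOE*3 females (21.8%), 1 of 58 in *APOE*3 males (1.88%), 6 of 59 in *APOE*4 females (5.51%), 4 of 58 in *APOE*4 males (4.03%) and 2 of 55 over all mice (12.2%). Without controls 61 and F6 there were 0 of 60 in *APOE*3 females, where 4.58% of all genes had such a p in limma. In *APOE*3 females the smallest p belonged to *Tlr3*, a receptor for double-stranded RNA (−0.43, SE 0.13, unadjusted p = 0.00887, or −0.30 without these controls), and among positive values to *Tnip2*, which encodes an A20-binding protein (0.45, SE 0.17, unadjusted p = 0.0251, or 0.30 without them). In B6 males *Xiap*, which encodes an inhibitor of apoptosis, had 0.92 (SE 0.31, unadjusted p = 0.00829), and *Tab1*, a partner of the kinase TAK1, −0.44 (SE 0.31). In B6 females the smallest p were those of *Sharpin*, of the linear ubiquitin ligase (0.80, SE 0.34), and of *Il1r1*, the interleukin 1 receptor (−1.16, SE 0.60). In *APOE*3 males they were those of *Birc3*, a ubiquitin ligase that NFKB induces (0.26, SE 0.11), and of the deubiquitinase *Otulin* (−0.13, SE 0.06), and over all 48 mice those of *Birc3* (0.31, SE 0.15) and of the adaptor *Bcl10* (−0.35, SE 0.16). *Ptgs2*, the inducible cyclooxygenase and an NFKB target, was 0.27 (SE 0.10, unadjusted p = 0.0194) with nPM in *APOE*4 females and −0.26 (SE 0.08, unadjusted p = 0.00941) in *APOE*4 males. The others with the smallest p were *Tnfrsf1a*, the TNF receptor, in *APOE*4 females (−0.39, SE 0.15) and *Rnf31*, of the linear ubiquitin ligase, in *APOE*4 males (0.16, SE 0.06).

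The list of NFKB targets, 29 genes of which 14 to 18 passed the level filter, had median nPM differences of −0.04 and 0.29 in B6 females and males, −0.06 and 0.02 in *APOE*3 females and males, and −0.05 and −0.02 in *APOE*4 females and males. Of the response differences, *Xiap* alone passed an unadjusted p of 0.005, being lower in females than in males by −0.53 (SE 0.15, unadjusted p = 0.000876, adjusted p = 0.286 from limma). In that contrast 1.49% of all 13543 genes passed, and the value of *Xiap* without controls 61 and F6 is not given here. For *APOE*4 minus *APOE*3 the smallest p were those of *Xiap* (0.29, SE 0.11) and the receptor *Tnfrsf21* (−0.32, SE 0.11), and for B6 minus *APOE*-TR those of the adaptor *Myd88* (0.78, SE 0.31) and *Bcl10* (−0.49, SE 0.35), none of them called. Between the alleles, *B2m*, the light chain of MHC class I, fell in *APOE*4 relative to *APOE*3 control males by 0.32 (SE 0.05, adjusted p = 0.0284 from limma) and nPM males by 0.27 (SE 0.05, adjusted p = 0.0195). It was −0.50 (SE 0.10, adjusted p = 0.189) in nPM females, where *Junb* had the smallest p among positive values (0.69, SE 0.17, adjusted p = 0.328). In control females *Vcam1*, an adhesion molecule (−0.57, SE 0.13), and *Malt1*, a protease of the Bcl10 complex (0.52, SE 0.14), both had an adjusted p of 0.0737, or −0.41 (adjusted p = 0.0621) and 0.43 (adjusted p = 0.121) without controls 61 and F6 in limma. Over all 48 mice the smallest p were those of *Vcam1* (−0.34, SE 0.15) and *Rnf31* (0.26, SE 0.16). Between the sexes, 13 of 58 genes of the lists were higher and 22 lower in *APOE*-TR females, beside 30.4% and 33% of all genes. The higher ones were led by *Nfkbil1* (0.83, SE 0.07), the stress gene *Gadd45b* (0.80, SE 0.07) and the AP-1 gene *Junb* (1.70, SE 0.15), and the lower ones by *Il1rap* (−0.32, SE 0.04), *Map3k7* (−0.20, SE 0.03), which encodes TAK1, and *Malt1* (−0.41, SE 0.07). In B6 females 6 of 55 were higher and 5 lower, beside 9.42% and 7.17%, led by *Tax1bp1* (0.77, SE 0.15), *Xiap* (1.13, SE 0.22) and *Map3k7* (0.71, SE 0.20) among the higher and by *Tnip1*, which encodes another A20-binding protein (−1.06, SE 0.23), *Bcl2l1* (−0.84, SE 0.21) and *Sharpin* (−0.91, SE 0.24) among the lower.

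Some members varied together from mouse to mouse. Over the 32 *APOE*-TR mice, with the 8 group means removed, Pearson's r of log2 levels was 0.83 between *Nfkb1* and *Ikbkb*, 0.79 between *Rela* and *Ikbkb* and 0.74 between *Nfkb1* and *Rela*. Without controls 61 and F6 these were 0.72, 0.71 and 0.68. Spearman's rank correlations over the 32 mice were lower, at 0.60, 0.68 and 0.47. The lowest Pearson's r was −0.47 between *Nfkbia* and *Ikbkb* (−0.38 without controls 61 and F6). Without these controls the lowest was −0.52, between *Ikbkb* and *Ikbkg* (−0.26 with them). The 3 genes whose levels were most like *Rela* were *Agpat1* (0.96), *Ccdc92* (0.94) and *Pcnx3* (0.93), and for *Ikbkb* they were *Ppp4r1* (0.95), *Nxf1* (0.95) and *Lime1* (0.94). For *Nfkb1* they were *Dip2a* (0.91), *Cdk5rap2* (0.91) and *Hr* (0.90), and for *Nfkbib* *Rprml* (0.93), *Znhit2* (0.92) and *Mrps12* (0.88). The best likeness of the other members was lower than that of these 4. *Nfkbia* was most like *Plekhf1* (0.72), *Tsc22d3* (0.70) and *Ddit4* (0.69), and *Tnfaip3* like *Stk40* (0.86), *Egr4* (0.84) and *Midn* (0.84). *Rel* was most like *Tnpo1* (0.76), *Pdpr* (0.75) and *Dok6* (0.74), and *Relb* like *Zfand3* (0.78), *Pdgfb* (0.75) and *Slc8b1* (0.70). *Ikbkg* was most like *Zranb3* (0.82), *Dgke* (0.70) and *R74862* (0.70). *Nfkb2* was most like *Acsf2* (0.76), *Sall1* (0.76) and *Mkl1* (0.76), all of which fell to at most 0.46 without controls 61 and F6. The partners named for the other members then lay between 0.60 (*Rel* with *Dok6*) and 0.93 (*Rela* with *Agpat1*). Both values of a mouse come from 1 library, with its depth and length slope, and the correlations are descriptions only.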

How the data were processed

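RNA of cerebral cortex from 48 mice was measured by stranded mRNA sequencing. The authors mapped reads with TopHat2 2.0.8b and Partek to mm10 and deposited CPM per gene and mouse, in 1 table per strain, on a scale not given in the sources used here (sums of 526602 to 880614). Reads were estimated by dividing by each mouse's lowest value. Low values came out whole (tolerance 0.02 reads) for 61.0% to 80.5% in B6 mice and 92.9% to 93.8% in *APOE*-TR mice, so B6 reads are approximate. Symbols found repeatedly (4 listings per table) were left out. The number of control F6 in its column is not that of any sample, and it was used by its group.

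CPM were rescaled by TMM (edgeR 4.0.16) within each table and genes with a mean of at least 0.5 CPM were tested as log2(CPM + 0.5) in limma 3.58.1 (R 4.3.3, eBayes with trend), with Benjamini-Hochberg adjustment over all genes tested. Calls were an unadjusted p under 0.005 for nPM and 5% FDR for allele and sex. All 10 members are named in every comparison. Of the pathway lists, at most 3 called genes per direction are named by smallest p, or the smallest p in each direction where none was called, and for each member the 3 genes most correlated over *APOE*-TR mice. Members and lists were chosen with earlier results of these data known. Scripts were tested on simulated data. Alternatives were other filters, added values of 0.1 and 2 CPM, no TMM, DESeq2 1.42.0 size factors, voom with ComBat (sva 3.50.0) for fits over both tables, edgeR, a shared spread, subsets and each mouse left out.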

Additional observations from a re-analysis of the deposited data

Results flagged for a closer look

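In 8 of the 120 sets of 4 values (10 genes in 12 groups), 1 mouse lay farther from the rest than Dixon's test allows, where chance gives about 1 in 20. *Rela* was low in *APOE*3 male control 63 (9.39 CPM, the nearest mouse 12.9), in *APOE*4 female control 7 (11.2, nearest 13.6) and in *APOE*3 female nPM 55 (7.57, nearest 12.1). *Relb* was high in B6 male control 0 (3.85 CPM, nearest 1.28). *Nfkbib* was high in B6 male nPM 10 (18.6 CPM, nearest 5.02). *Ikbkb* was high in *APOE*3 male control 55 (30.1 CPM, nearest 26.4), and *Ikbkg* in B6 female nPM 51 (13.1, nearest 7.11). *Tnfaip3* was low in B6 male control 2 (0.777 CPM, nearest 1.68).

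The nPM response of *Rel*, B6 minus *APOE*-TR mice, was −1.44 on the log2 scale by the test of the difference itself (limma, unadjusted p = 9.41e-05, adjusted p = 0.451). It passed the unadjusted call only, in a comparison added after the values of *Rel* were seen. Strain, exposure, duration, age and table cannot be told apart in this difference.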

How the results depend on the processing

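Of the counts of members called, these moved. For nPM over all 48 mice the count of 0 became 1 (*Rel*) in the 16 B6 mice alone and without *APOE*3 female controls 61 and F6, and ran from 0 to 1 when each mouse was left out. It became 1 in B6 males when genes had to lie above the lowest value in every mouse. It became 3 in *APOE*3 females, and 5 for the allele in control females, when all groups of the table shared a spread, settings under which 33.3% and 58.6% of all genes passed. Leaving out each mouse gave 0 to 1 in B6 females and *APOE*3 males, 0 to 3 for the allele in control females, 0 to 2 for the difference in response between alleles, and 1 to 2 for sex in B6 mice. The shares of all genes that passed in these leave-out fits are not given here, so these counts have no background beside them. The count of 1 for the difference in response between strains became 0 under filters asking for reads in every mouse, which remove *Rel*, and the count of 2 for sex in B6 mice became 1 with no filter and with voom. Other than where stated, the cause was not tested.

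Of 169 member values, 60 changed direction under at least 1 alternative, but of the 28 with an unadjusted p under 0.05 only 1 did, *Rel* over all 48 mice. edgeR was not run for comparisons with B6 mice, whose reads are approximate. No paired analysis was possible because control and nPM groups, and allele groups, of 1 sex share no animal numbers, and a number shared by a female and a male marks different animals. With 4 mice per group, and B6 members at few reads, small changes were not detectable.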
